A study of Mus musculus with 8 samples.

Results

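The matrix metalloproteinases and their tissue inhibitors (TIMPs) in the mouse esophagus are described here through 10 genes, found by their symbols among the 32849 gene symbols of the count table. They are the 6 metalloproteinase genes Mmp2, Mmp3, Mmp9, Mmp13, Mmp14 and Mmp19 and the inhibitor genes Timp1, Timp2, Timp3 and Timp4. All 10 had a row in the table, and 9 of them were among the 14864 genes with enough counts to be tested. Mmp13 did not have enough counts and is described by its counts only.

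Esophagus RNA from 4 MGL KO and 4 WT mice was sequenced, with 1 library per sample. MGL, monoacylglycerol lipase, is encoded by Mgll and breaks down the endocannabinoid 2-arachidonoylglycerol, and the question was which genes differ at baseline when the enzyme is missing. The MGL KO is a deletion in the whole animal and not in the epithelium alone, and the methods describe WT littermates bred in the same house. No group received a treatment, and neither group carried the inducible interleukin-33 transgene that the study used elsewhere. The labels give neither age nor sex for each library, and the methods speak of young adult mice of both sexes for the study's experiments in general. In the data, the summed level of 4 Y-linked genes was above 1 normalized CPM in all 4 MGL KO and all 4 WT libraries. The RNA came from frozen esophagus tissue and not from sorted or separated cells.

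Matrix metalloproteinases are zinc enzymes that cut proteins of the extracellular matrix and are mostly secreted as inactive proenzymes. TIMPs bind their active site and block them, so that the local amount of both decides how much matrix is cut. In the wall of the gut, fibroblasts, macrophages, smooth muscle and epithelium can all make members of both families. RNA levels say nothing of how much proenzyme is activated.

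Library totals ranged from 13479069 to 17090152 counts. Normalized CPM (counts scaled to the size of the library over the tested genes) include TMM factors. A gene with a count of 0 may still reach 3 counts, or 0.167 to 0.271 normalized CPM depending on the library (counting error only). The targeted gene Mgll was at 13.7 ± 1.54 normalized CPM (SD, n = 4) in MGL KO and 81.2 ± 9.97 (SD, n = 4) in WT libraries, so the labels held. The tissue label held too, since the esophageal keratin gene Krt13 and the skeletal muscle actin gene Acta1 were at 1464 and 14494 normalized CPM or more in every library. Library differences beyond genotype were present. MGL KO replicate 4 held 11919 normalized CPM of airway secretory and gland markers summed over 8 genes, against at most 730.2 in the others, and 588.4 of ciliated cell markers, against at most 16.1 (9 genes, without Tppp3, which was high in all libraries). MGL KO replicate 2 had the highest sum of skeletal muscle markers, 90928 normalized CPM. It also had the lowest sums of differentiated squamous epithelium and fibroblast markers, at 2258 and 1661.

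Promoters were compared first, because several metalloproteinase genes are textbook targets of the transcription factor AP-1, a dimer of Fos and Jun proteins. A RefSeq promoter of the build GRCm38.p6 was given for 7 of the 10 genes. The AP-1 sequence TGAGTCA or its reverse complement TGACTCA (both strands searched, 250 bases before to 50 after the start) was found in 2 of these 7, Mmp3 and Mmp13. The motif was present in 1709 of 32851 promoters of that length (5.20%). It also lay in the promoter of Mmp10, a stromelysin gene near Mmp3 on chromosome 9 that was detected in 1 library only. The 250 bases before the start of each of these 3 genes are given 5′ to 3′ on the forward strand, with the motif in capitals. The motif starts 46 bases before the start of Mmp3 (chr9:7445572-7445821), 35 before that of Mmp13 (chr9:7272264-7272513) and 63 before that of Mmp10 (chr9:7502092-7502341).
Mmp3: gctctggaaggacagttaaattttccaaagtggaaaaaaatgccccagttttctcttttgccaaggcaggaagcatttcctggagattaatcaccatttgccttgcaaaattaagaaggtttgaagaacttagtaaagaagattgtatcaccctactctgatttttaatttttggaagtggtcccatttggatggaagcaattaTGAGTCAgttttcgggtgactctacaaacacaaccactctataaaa
Mmp13: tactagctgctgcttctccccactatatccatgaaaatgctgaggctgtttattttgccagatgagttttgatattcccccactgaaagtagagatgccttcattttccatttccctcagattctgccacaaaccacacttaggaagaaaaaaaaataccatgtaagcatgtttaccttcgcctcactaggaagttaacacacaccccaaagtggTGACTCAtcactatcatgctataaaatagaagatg
Mmp10: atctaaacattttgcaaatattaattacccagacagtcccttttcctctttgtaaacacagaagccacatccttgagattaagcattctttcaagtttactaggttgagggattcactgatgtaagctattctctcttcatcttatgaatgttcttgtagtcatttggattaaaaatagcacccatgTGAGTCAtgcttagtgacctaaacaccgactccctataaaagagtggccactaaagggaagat
A match is a sequence and not a measured binding site. The 3 genes printed above had at most 76 counts in any library. In Mmp12, the motif lay 44 bases before a start (chr9:7347124-7347373) and was absent at a further start (chr9:7344147-7344396). Mmp12 had at most 31 counts in any library.

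On the scale of normalized CPM per kilobase of exon, which takes gene length into account, Timp2 was the most abundant of the 10 genes. Its level was 50.2, averaged over the 8 libraries, and made up 60.5% of the sum of all 10 genes. It lay at percentile 96.6 of all tested genes. TIMP-2 is the inhibitor that also takes part in activating pro-MMP-2 at the cell surface. Mmp14, the membrane-anchored collagenase MT1-MMP that performs this activation, followed with a level of 10.6 per kilobase, and Timp2 was higher than Mmp14 in 8 of 8 libraries with separate ranges. Timp3, the inhibitor that stays bound to the matrix, was at 7.83 per kilobase and Mmp2, gelatinase A, at 7.52. Mmp2 and Timp3 could not be put in order, since Timp3 was the higher of the pair in 4 of 8 libraries.

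Mmp19, a metalloproteinase of resting tissues, was at 2.72 normalized CPM per kilobase. The other 5 genes were low: Timp1 at 1.34, Timp4 at 0.975, Mmp9 at 0.831, Mmp3 at 0.800 and Mmp13 at 0.125 per kilobase. Of the 9 neighbouring pairs in this order, only Timp2 and Mmp14 had ranges over the libraries that did not overlap. Within a library, the upper gene was higher in 8 of 8 libraries for 4 pairs, which were Timp2 over Mmp14, Mmp2 over Mmp19, Mmp19 over Timp1 and Mmp3 over Mmp13. Mmp9 exceeded Mmp3 in 4 of 8 libraries. With the length of the canonical transcript in place of all exons, Mmp19 and Timp1 traded rank 5 and rank 6. On that length Timp2 was at 59.8 and Mmp14 at 23.5 per kilobase, so shares and ratios depend on the length used.

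**Figure D1:**
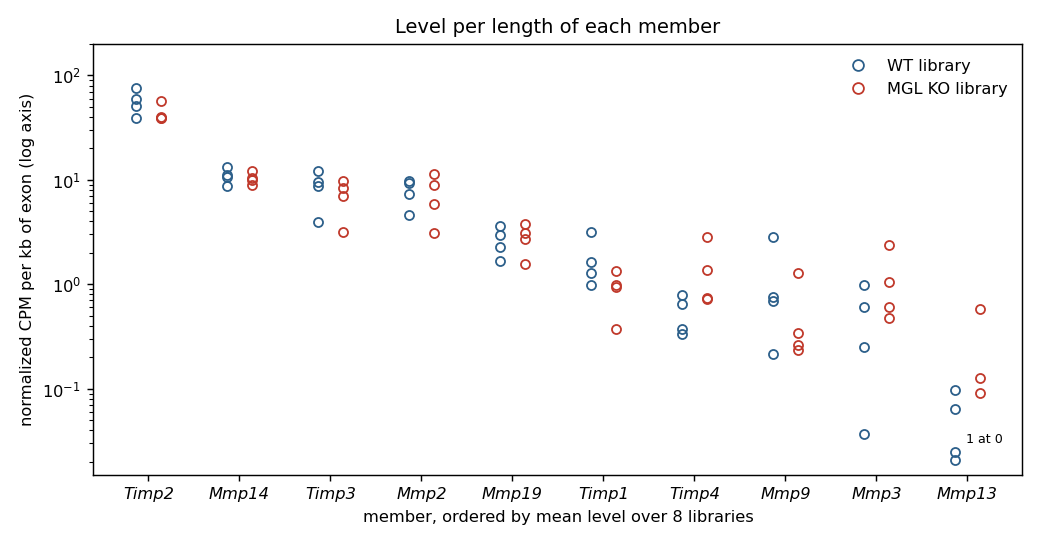
Level of each of the 10 genes in normalized CPM per kilobase of exon (log axis) in the 4 WT (blue) and 4 MGL KO (red) libraries, each circle a library, with genes ordered by mean level. Timp2 (mean 50.2) stands above Mmp14 (mean 10.6) in every library, while the ranges of all other neighbours overlap; the MGL KO library in which Mmp13 had 0 counts is written as a label.

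Between the genotypes, none of the 9 tested genes differed significantly. By edgeR's quasi-likelihood test, 0 of 9 had an adjusted p under 0.05, and 1 of 9, Timp4, had an unadjusted p under 0.05. The same comparison called 7 of 14864 genes (0.0471%), with 3 higher in MGL KO (0.0202%) and 4 lower (0.0269%), and 1285 genes (8.65%) had an unadjusted p under 0.05. The exact test, DESeq2 and limma-voom, which called 0.431%, 0.935% and 0.168% of the genes they tested, each called 0 of the 9 as well, with unadjusted p under 0.05 for 1, 1 and 2 of them. The median log2 fold change of the 9 was -0.09, against 0.02 over all tested genes. Fold changes were above 0 for 3 genes and below 0 for 6, where 6980 of all tested genes (47%) were below 0. In none of the 9 did the groups separate without overlap, which happened for 895 of the 14864 tested genes (6.02%). Without both MGL KO replicates 2 and 4, the libraries that stood apart in their markers, 0 of the 9 were called as well. These are bulk tissue values, in which fewer cells of a type and less RNA per cell cannot be told apart.

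**Figure D2:**
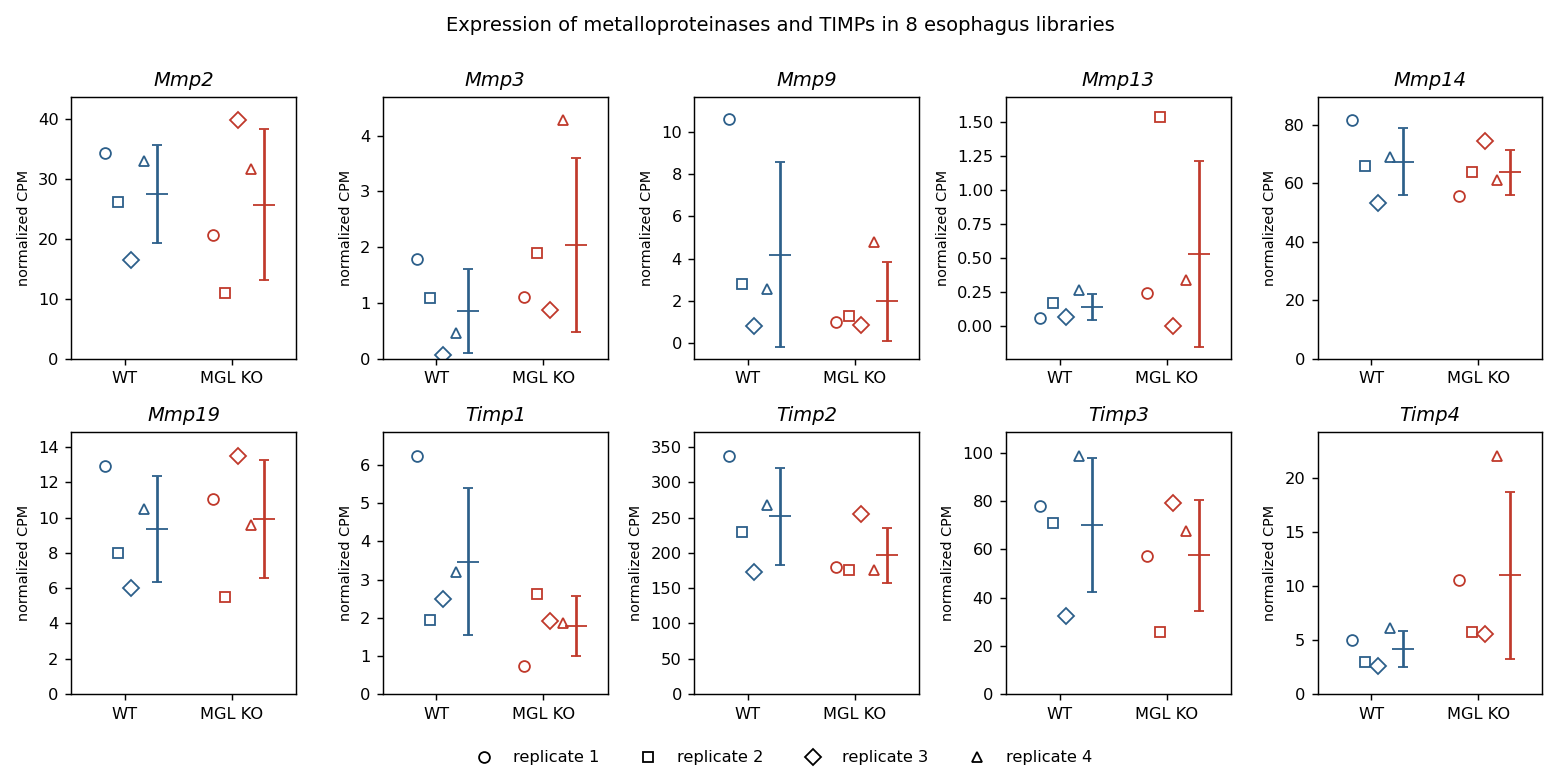
Normalized CPM of each of the 10 genes in the 4 WT (blue) and 4 MGL KO (red) libraries, 1 panel per gene with its own axis; symbols mark the replicate number, and the bar beside them is the mean ± SD. The groups overlap in every panel; Timp4 shows MGL KO replicate 4 at 22.0, far above the other 7 libraries, and Mmp9 shows WT replicate 1 at 10.6.

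Mmp2, the gelatinase that cuts denatured collagen and basement membrane collagen, was at 20.6, 10.9, 39.8 and 31.6 normalized CPM in MGL KO replicates 1 to 4 and at 34.3, 26.1, 16.4 and 33.0 in WT replicates 1 to 4. Both the lowest and the highest library were MGL KO, so the WT range lay inside the MGL KO range. The log2 fold change of MGL KO against WT was -0.09 (standard error 0.38, 95% interval -0.94 to 0.76, adjusted p = 0.953 by edgeR). Mmp2 (ENSMUSG00000031740.10) lies on chromosome 8 of GRCm39 from 93553902 to 93580049. It shares 860 of its exon bases (24.3%) with the lncRNA gene Gm45472 on the opposite strand, and the strand setting of the counting is not given.

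Mmp14 varied least. Its 4 MGL KO libraries were at 55.7, 63.9, 74.2 and 60.9 normalized CPM and its 4 WT libraries at 81.4, 65.8, 53.3 and 69.0. All MGL KO values lay inside the WT range. The log2 fold change was -0.08 (standard error 0.14, adjusted p = 0.876 by edgeR), and its 95% interval of -0.40 to 0.24 was the narrowest among the 9 genes. Mmp14 (ENSMUSG00000000957.13) lies on chromosome 14 of GRCm39 from 54668878 to 54682821.

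Mmp19 was at 11.1, 5.50, 13.5 and 9.55 normalized CPM in the MGL KO libraries and at 12.9, 7.99, 5.98 and 10.5 in the WT libraries. Its extremes were again both MGL KO, with replicate 2 lowest and replicate 3 highest, as for Mmp2. MGL KO differed from WT by a log2 fold change of 0.09 (standard error 0.32, 95% interval -0.63 to 0.80, adjusted p = 0.944 by edgeR). Mmp19 shares 1084 of its exon bases (30.6%) with Tmem198b on the opposite strand. The use of strand in counting is not given in the sources used here, so reads of the pair may not have been told apart. Tmem198b was at 2.44 to 9.48 normalized CPM. Mmp19 lies on chromosome 10 of GRCm39 from 128626773 to 128636695.

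Mmp3, stromelysin-1, which cuts proteoglycans and activates other proenzymes, had between 1 and 76 counts per library. The MGL KO libraries were at 1.10, 1.90, 0.863 and 4.27 normalized CPM and the WT libraries at 1.79, 1.08, 0.0657 and 0.456. The highest was MGL KO replicate 4 and the lowest WT replicate 3, which had 1 count. The log2 fold change was 1.24 with a standard error of 0.78 (95% interval -0.52 to 3.00, adjusted p = 0.669 by edgeR). It was 0.55 without MGL KO replicate 4 and 1.89 without WT replicate 1. Mmp3 lies on chromosome 9 of GRCm39 from 7445822 to 7455975.

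Mmp9, gelatinase B, a product mainly of neutrophils and macrophages in many tissues, was at 0.980, 1.26, 0.863 and 4.78 normalized CPM in the MGL KO libraries and at 10.6, 2.80, 0.789 and 2.54 in the WT libraries. WT replicate 1 and MGL KO replicate 4 were high in their groups and the other 6 libraries lay between 0.789 and 2.80. For Mmp9 the log2 fold change was -1.07 (standard error 0.82, 95% interval -2.92 to 0.77, adjusted p = 0.715 by edgeR). Without WT replicate 1 it was -0.04, and without MGL KO replicate 4 it was -2.02. The same pair of libraries had the highest sums of 10 neutrophil markers, 24.8 in WT replicate 1 and 22.4 in MGL KO replicate 4, against at most 13.2 in the others. These sums are low, since 5 of the 10 markers were under 1 normalized CPM in every library. The sum of 8 macrophage markers was likewise highest in WT replicate 1 (638.1), but lowest of all 8 libraries in MGL KO replicate 4 (196.5). Over the 8 libraries, Mmp9 and the macrophage sum had Pearson's r of 0.690 (exact permutation p = 0.0528, adjusted 0.157 over 36 relations) and Spearman's rho of 0.286 (exact permutation p = 0.501, adjusted 0.601). Pearson's r was 0.899 within WT and -0.52 within MGL KO, and -0.064 without WT replicates 1 and 4, so it rested on those libraries. The part of neutrophils was not tested. Mmp9 lies on chromosome 2 of GRCm39 from 164780439 to 164797771.

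Mmp13, collagenase-3, the main interstitial collagenase of the mouse, was nearly absent. It had 4, 17, 0 and 6 counts in the MGL KO libraries and 1, 3, 1 and 4 counts in the WT libraries, which sums to 27 and 9. MGL KO replicate 2 alone held 17 of these counts, and MGL KO replicate 3, with 0 counts, can hold up to 0.185 normalized CPM. Without the filter on low counts, the log2 fold change was 1.82 (unadjusted p = 0.128, adjusted p = 0.675 by edgeR). Mmp13 lies on chromosome 9 of GRCm39 from 7272514 to 7283331.

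Among the inhibitors, Timp2 was at 179.3, 175.6, 254.5 and 176.0 normalized CPM in the MGL KO libraries and at 337.4, 229.4, 173.1 and 267.6 in the WT libraries. Replicates 1, 2 and 4 of MGL KO lay close together near the bottom of the WT range, and WT replicate 3 was the lowest of all. The means were 196.3 ± 38.8 and 251.9 ± 69.0 (SD, n = 4). The log2 fold change of -0.36 (standard error 0.22, 95% interval -0.85 to 0.13) had an adjusted p of 0.664 by edgeR. It was -0.19 without WT replicate 1. Timp2 lies on chromosome 11 of GRCm39 from 118191887 to 118246566, and 332 of its exon bases also belong to Cep295nl on the same strand, which had at most 21 counts in any library.

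Timp3 was at 57.1, 25.7, 79.2 and 67.8 normalized CPM in the MGL KO libraries and at 78.0, 71.1, 32.3 and 98.8 in the WT libraries. The lowest were MGL KO replicate 2 and WT replicate 3, 1 library of each genotype. Its log2 fold change was -0.28 (standard error 0.39, 95% interval -1.16 to 0.59, adjusted p = 0.836 by edgeR), and it was between -0.52 (without WT replicate 3) and -0.04 (without MGL KO replicate 2) with 1 library left out. It was -0.48 without MGL KO replicate 3 and -0.07 without WT replicate 4. Timp3 lies on chromosome 10 of GRCm39 from 86136236 to 86185371 inside Syn3, which runs on the opposite strand, shares 1734 of its exon bases (21.3%) and had 3 to 18 counts per library.

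Timp1, the inducible inhibitor that many cells release in inflammation and fibrosis, was low, with 12 to 112 counts. The MGL KO libraries were at 0.735, 2.62, 1.91 and 1.85 normalized CPM and the WT libraries at 6.25, 1.94, 2.50 and 3.19. In 3 of 4 MGL KO libraries Timp1 was below the lowest WT library, and MGL KO replicate 2 lay within the WT range. Its log2 fold change was -0.97 (standard error 0.47, 95% interval -2.04 to 0.09), with an unadjusted p of 0.0688 and an adjusted p of 0.615 by edgeR. Without WT replicate 1 it was -0.52. Timp1 lies on chromosome X of GRCm39 from 20736316 to 20740976.

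Timp4, an inhibitor known from heart, muscle and fat, showed the largest log2 fold change of the 9 genes in the reported fit. Mmp9 was larger in size by limma-voom (-1.36 against 1.12 for Timp4) and without MGL KO replicate 4 (-2.02 against 0.82). Mmp3 was larger with the replicate block (1.43 against 1.27). The MGL KO libraries were at 10.5, 5.78, 5.55 and 22.0 normalized CPM and the WT libraries at 4.96, 2.91, 2.56 and 6.06. MGL KO replicates 1 and 4 lay above all WT libraries, and replicates 2 and 3 lay between the 2 highest WT values. The means were 11.0 ± 7.72 in MGL KO and 4.13 ± 1.67 in WT (SD, n = 4). For Timp4 the log2 fold change was 1.41 (standard error 0.49, 95% interval 0.30 to 2.53), with an unadjusted p of 0.0185 and an adjusted p of 0.509 by edgeR, so the difference did not pass the correction over all genes. By the two-sided exact permutation test over the 4 against 4 libraries, p was 0.0857, where 0.0286 is the smallest possible.

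Without MGL KO replicate 4, the library with airway markers, the log2 fold change of Timp4 was 0.82 (unadjusted p = 0.0575 by edgeR). Its adjusted p was lowest with DESeq2, at 0.176. Across the 21 settings tried, including the reported one, Timp4 had an unadjusted p under 0.05 in 19. The exceptions were the fits without MGL KO replicate 4 and without WT replicate 2, and edgeR gave an unadjusted p of 0.0503 in the latter. Timp4 lies on chromosome 6 of GRCm39 from 115187773 to 115229336. Mgll is on the same chromosome at a distance of 26.4 Mb. The Timp4 gene lies inside Syn2, transcribed from the opposite strand, with which 1142 of its exon bases (14.8%) are shared. Syn2 was at 5.20, 3.52, 7.03 and 8.21 normalized CPM in the MGL KO libraries and at 5.19, 5.71, 4.73 and 4.82 in the WT libraries, so its highest value was also in MGL KO replicate 4. Its log2 fold change was 0.23 (standard error 0.27, adjusted p = 0.804 by edgeR).

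**Figure D3:**
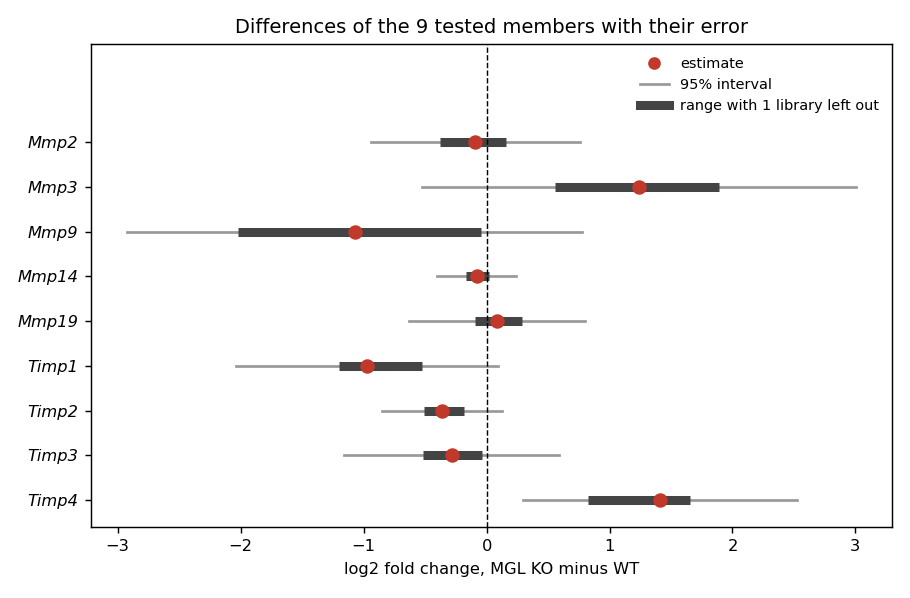
Log2 fold change of MGL KO against WT for the 9 tested genes (points), with the 95% interval (thin line) and the range obtained when each of the 8 libraries was left out in turn (thick line). The interval includes 0 for every gene except Timp4 (0.30 to 2.53), which did not pass the correction for all genes tested; Mmp14 has the narrowest and Mmp9 the widest interval.

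The balance of inhibitors to enzymes was described by dividing the summed level per kilobase of the 4 TIMPs by that of the 6 metalloproteinases in each library. This ratio was chosen after the values had been seen, so it carries no test. It was 2.58, 2.63, 2.46 and 2.04 in the MGL KO libraries and 2.93, 2.83, 2.91 and 3.04 in the WT libraries. All MGL KO libraries lay below all WT libraries, with means of 2.43 ± 0.27 and 2.93 ± 0.085 (SD, n = 4). Among single genes, 6.02% of all tested genes had groups that did not overlap. The highest MGL KO and the lowest WT library were only 2.63 and 2.83, and the groups overlapped when CPM were summed without regard to length or when Mmp14, Timp2 or Timp3 was left out. The ratio of Timp2 to Mmp14 alone, 3.80 to 4.74 in MGL KO and 4.49 to 5.72 in WT, overlapped between the groups. So did the ratios of Timp2 to Mmp2, Mmp14 to Mmp2 and Timp1 to Mmp9. The share of Timp2 in the TIMP sum and that of Mmp14 in the metalloproteinase sum overlapped as well. Timp4 made up 1.05% to 5.52% of the TIMP sum in MGL KO and 0.611% to 1.05% in WT.

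**Figure D4:**
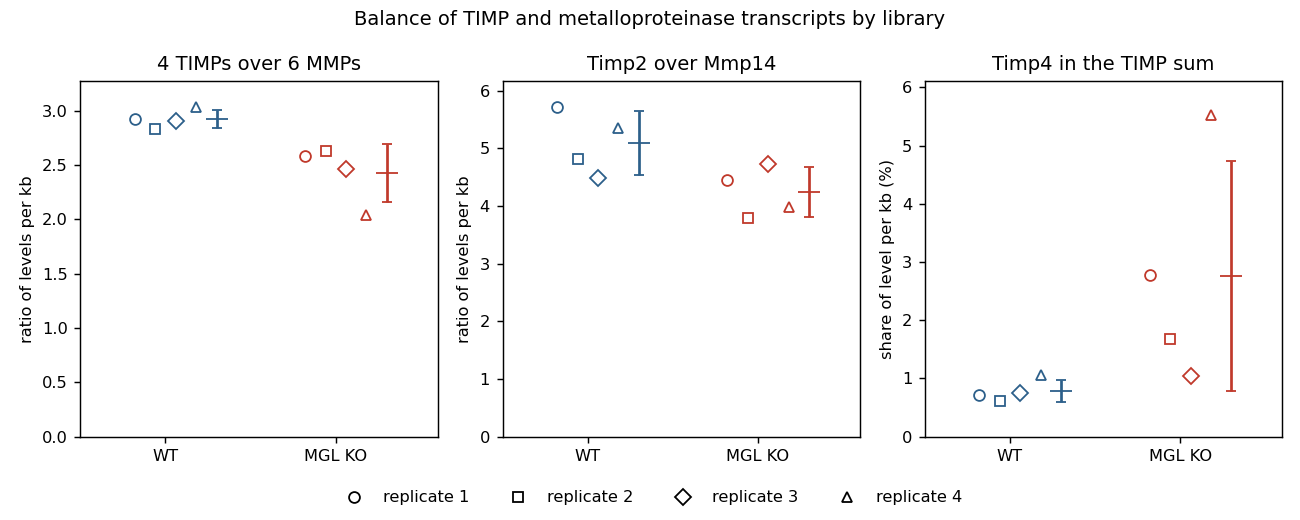
Left, summed level per kilobase of the 4 TIMPs over that of the 6 metalloproteinases; middle, Timp2 over Mmp14; right, share of Timp4 in the TIMP sum (%), each in 4 WT (blue) and 4 MGL KO (red) libraries, with symbols for replicates and bars for mean ± SD. In the left panel the MGL KO libraries (2.04 to 2.63) lie below the WT libraries (2.83 to 3.04), and in the other panels the groups overlap.

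Several of the 9 tested genes varied together from library to library, across genotypes. The correlation of log2 CPM over the 8 libraries was 0.94 for Mmp2 and Timp3, 0.90 for Mmp14 and Timp2 and 0.87 for Mmp2 and Mmp19, given as descriptions over libraries that share their depth and tissue makeup. The highest or lowest value of a gene fell in 7 of the 8 libraries. MGL KO replicate 2 was lowest for Mmp2, Mmp19 and Timp3, and WT replicate 3 was lowest for Mmp3, Mmp9, Mmp14, Timp2 and Timp4. WT replicate 1 was highest for Mmp9, Mmp14, Timp1 and Timp2. MGL KO replicate 4 was highest for Mmp3 and Timp4, MGL KO replicate 3 for Mmp2 and Mmp19, and WT replicate 4 for Timp3. MGL KO replicate 1 was lowest for Timp1, and WT replicate 2 was at neither end for any gene.

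Cell type markers moved with these libraries. The sum of 6 adipocyte markers was 22.0 normalized CPM in MGL KO replicate 2 and 11.5 in WT replicate 3, against at least 110.3 in the other libraries. The sum of 10 fibroblast markers ranged from 1661 to 3478 in MGL KO and from 2417 to 3369 in WT, and 0 of the 10 had a fold change above 0. The sum of 8 macrophage markers ranged from 196.5 to 245.2 in MGL KO and from 216.0 to 638.1 in WT, highest in WT replicate 1, again with 0 of 8 above 0. Endothelial markers were below 0 for all 8 genes, with sums of 183.4 to 331.9 in MGL KO and 253.4 to 327.2 in WT. Other lists were mixed, with fold changes above 0 for 5 of 6 adipocyte, 6 of 10 skeletal muscle and 5 of 8 smooth muscle markers. The same held for 5 of 7 basal squamous, 3 of 9 tested differentiated squamous and 3 of 7 glia markers. Genes of a list were measured in the same 8 libraries and are not separate observations.

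Of 36 relations between the 9 genes and the sums of fibroblast, macrophage, adipocyte and skeletal muscle markers, 1 passed the adjustment by Pearson's r and 0 by Spearman's rho, whose smallest adjusted exact permutation p was 0.0821. Timp2 and the macrophage sum had Pearson's r of 0.919 (exact permutation p = 0.00114, adjusted 0.0411) and Spearman's rho of 0.762 (exact permutation p = 0.0368, adjusted 0.132) over the 8 libraries. Pearson's r was 0.890 without WT replicates 1 and 4, and 0.987 within MGL KO and 0.960 within WT. Timp2 also followed other sums within WT, with r of 0.976 for adipocyte and -0.962 for skeletal muscle markers. Within MGL KO these were 0.519 and 0.041. With the adipocyte sum, r was 0.901 for Mmp19 and 0.895 for Mmp2 (exact permutation p adjusted to 0.0560 for both), and without MGL KO replicate 2 and WT replicate 3 it was 0.620 and 0.823. For Timp3 and the adipocyte sum, r was 0.873 (exact permutation p adjusted to 0.0810), and 0.308 without those libraries. With the skeletal muscle sum, r was lowest for Mmp2, at -0.748 (exact permutation p = 0.0346, adjusted 0.125). With the fibroblast sum, r was 0.823 for Timp3 and 0.817 for Mmp2 (exact permutation p adjusted to 0.0810 for both), and without MGL KO replicates 2 and 3 it was 0.620 and 0.412. The part of these cell types in the genotype comparison was not tested.

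**Figure D5:**
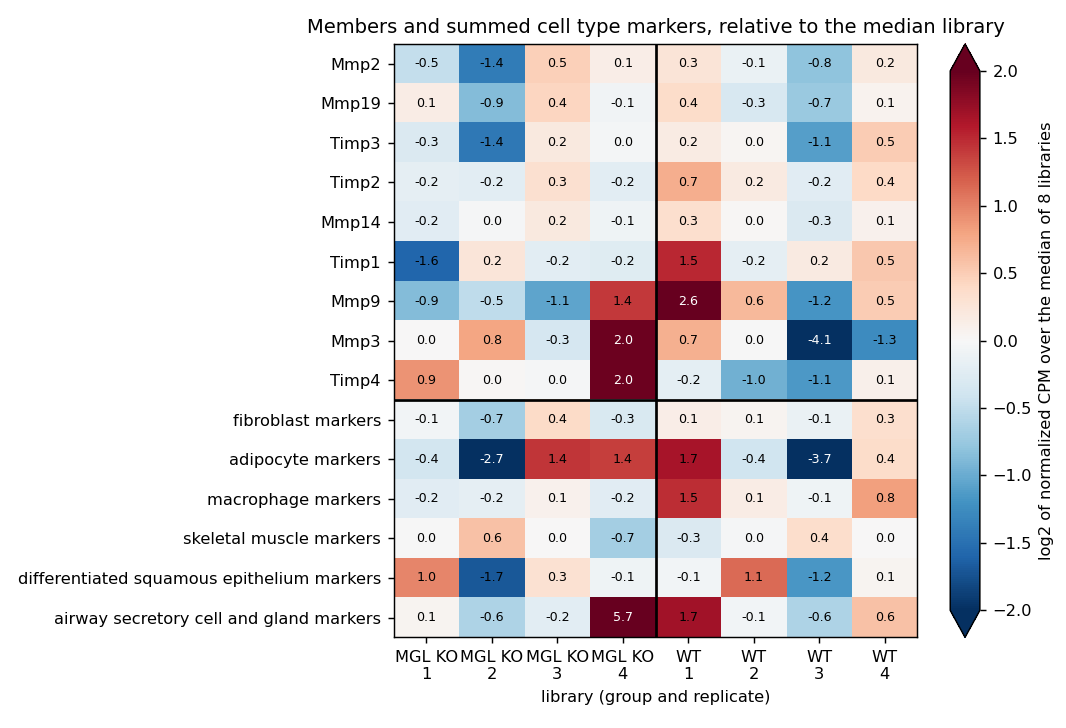
Each of the 9 tested genes (upper rows) and the summed normalized CPM of 6 cell type marker lists (lower rows) in the 8 libraries, as log2 of the value over the median library, with red above and blue below the median; the vertical line parts MGL KO from WT. MGL KO replicate 2 and WT replicate 3 are low for Mmp2, Mmp19, Timp3 and adipocyte markers, WT replicate 1 is high for Timp2 and macrophage markers, and MGL KO replicate 4 stands out for airway secretory markers.

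The other genes of the system were examined as 4 lists. Of 17 other metalloproteinase genes, 7 were tested, of which 0 were called and 0 had an unadjusted p under 0.05 by edgeR; 2 had a fold change above 0 and 5 below. The most abundant per kilobase were Mmp15, a further membrane-anchored metalloproteinase, and Mmp23. Mmp15 was at 56.6, 59.9, 72.2 and 152.0 normalized CPM in MGL KO and between 54.5 and 57.3 in WT (log2 fold change 0.61, standard error 0.29, adjusted p = 0.612 by edgeR). The 152.0 was from MGL KO replicate 4. Mmp23 ranged from 2.35 to 9.89 in MGL KO and from 5.98 to 17.4 in WT (adjusted p = 0.730 by edgeR). Mmp10 (named after its counts were seen) had 22 counts in MGL KO replicate 2 and 0 in every other library. Mmp12, macrophage elastase (likewise named afterwards), was at 2.80 in MGL KO replicate 2 and at most 0.913 elsewhere.

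Of 28 ADAM and ADAMTS proteases, relatives that TIMP-3 in particular also inhibits, 26 were tested and 0 were called. Adam8 alone (named after its values were seen) had an unadjusted p under 0.05, with 225 normalized CPM in MGL KO replicate 4 and 8.21 to 23.4 in the other 7 libraries. Adamts7, which cuts cartilage oligomeric matrix protein, was the single gene of the list whose groups did not overlap, at 0.993 to 4.38 in MGL KO and 4.40 to 4.85 in WT (log2 fold change -0.68, standard error 0.38, adjusted p = 0.646 by edgeR). That is 1 of 26 genes (3.85%), against 6.02% of all tested genes. Adam9 and Adam10, membrane sheddases, were the most abundant per kilobase, with log2 fold changes of 0.09 and -0.02 (adjusted p = 0.818 and 0.966 by edgeR). The median over the list was -0.03.

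Of 24 genes for the activation and clearance of metalloproteinases, 20 were tested and 0 were called, and 4 of the 20 (20%) had an unadjusted p under 0.05, against 8.65% of all tested genes, among them Thbs1, Thbs2 and Lcn2. Thbs1 encodes thrombospondin-1, a matrix protein that binds metalloproteinases and passes them to the receptor LRP1 for uptake. It was at 33.0, 53.1, 41.7 and 55.9 normalized CPM in MGL KO and at 24.2, 16.4, 14.7 and 21.1 in WT. Every MGL KO library was above every WT library, as in 404 of the tested genes (2.72%). In the list, 2 of 20 genes (10%) had groups that did not overlap, Thbs1 and Thbs2, against 6.02% of all tested genes. The log2 fold change was 1.26 (standard error 0.21, 95% interval 0.78 to 1.74), with an adjusted p of 0.170 by edgeR's quasi-likelihood test. DESeq2 and edgeR's exact test on all genes called it, with adjusted p of 3.76e-05 and 0.00023, while limma-voom (0.0700) and the fit with the replicate number as a block (0.769) did not.

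Thbs2, which encodes the related thrombospondin-2, went the other way. It was at 20.8, 14.3, 23.4 and 16.2 normalized CPM in MGL KO and at 28.1, 34.5, 23.9 and 34.8 in WT, without overlap, as in 491 of the tested genes (3.3%). Its log2 fold change was -0.70 (standard error 0.19, adjusted p = 0.478 by edgeR). Lcn2, whose product binds MMP-9 (named after its values were seen), was at 227 in MGL KO replicate 4 and at most 9.71 elsewhere. Bsg and Sdc1, an inducer of metalloproteinases and a shed proteoglycan, were the most abundant of the list per kilobase, with log2 fold changes of 0.23 and 0.27 (adjusted p = 0.683 and 0.837 by edgeR).

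Of 18 matrix substrates, 16 were tested and 0 were called, with 6 fold changes above and 10 below 0 and a median of -0.19. Eln, elastin, was at 474.2, 399.2, 655.1 and 415.8 normalized CPM in MGL KO and at 324.9, 267.5, 276.0 and 269.7 in WT, with every MGL KO library above every WT library, as in 2.72% of all tested genes. Its log2 fold change was 0.77 (standard error 0.17, 95% interval 0.38 to 1.17) with an adjusted p of 0.319 by edgeR's quasi-likelihood test. DESeq2 and limma-voom called it, with adjusted p of 0.00304 and 0.0481, while the exact test on all genes (0.0974) and the fit with the replicate block (0.875) did not. Dcn, decorin, a proteoglycan of collagen fibrils, was at 367.5 to 518.9 in MGL KO and 522.6 to 645.8 in WT (log2 fold change -0.36, standard error 0.14, adjusted p = 0.550 by edgeR). Eln and Dcn were the 2 of 16 genes (12.5%) whose groups did not overlap, against 6.02% of all tested genes. Col3a1 and Col1a1, the chains of fibrillar collagen, were the most abundant substrates per kilobase. Their log2 fold changes were -0.17 and -0.25 (adjusted p = 0.897 and 0.863 by edgeR), with MGL KO replicate 3 highest and MGL KO replicate 2 lowest for both genes.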

How the data were processed

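Poly(A)-selected RNA of frozen mouse esophagi (4 MGL KO, 4 WT) was sequenced on Illumina NovaSeq instruments. Per the labels and the study's methods, the authors checked reads with FastQC 0.11.9, trimmed them with cutadapt and aligned them to GRCm39 with STAR 2.7.10b; the deposited values are whole-number counts per gene symbol, without normalization. Counting tool, annotation and strand setting are not given in the sources used here. The 14864 genes passing filterByExpr (minimum count 10) were tested with edgeR 4.0.16 (R 4.3.3; TMM, quasi-likelihood, Benjamini-Hochberg, threshold 0.05). The study's exact test, DESeq2 1.42.0 and limma 3.58.1 voom were alternatives, beside other scalings and filters, the replicate block and each library left out. Standard errors are the size of the log2 fold change over the square root of F. The methods were tested on simulated data. Exon lengths came from GENCODE release 39 (93.6% of symbols matched).

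The 10 genes are a gene family selected by symbol; they and the 4 lists were chosen with earlier results of these data known. Outside the 10 genes, those named were calls, up to 3 non-overlapping genes with the largest change and the 2 most abundant per kilobase in each list. Adam8, Lcn2, Mmp10 and Mmp12 were named after their values were seen. Protein-coding genes that share exon bases with a member, Gm45472 and tissue markers are named beside the results they touch. The lncRNA genes Gm62879 and Gm47093 also share 3.55% of the exon bases of Mmp14 and 6.16% of those of Mmp19. For each tested gene, the 2 genes most like it over the libraries were also named. Nothing states that libraries came from separate cages or days, so p-values measure the spread between these libraries. The 95% intervals of fold changes carry that same spread, while the limits given for low counts cover counting error only. No pair of libraries of 1 group agreed within sampling noise. The replicate numbers did not pair the libraries. The values of 1 gene that would otherwise be named are not reported here.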

Additional observations from a re-analysis of the deposited data

Results flagged for a closer look

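Of 46 groups of 4 libraries examined for a library far from the other 3, 3 were flagged, where chance gives about 1 in 20 groups (2.3 expected). Mmp9 in MGL KO replicate 4 was at 4.78 normalized CPM, with the next MGL KO library at 1.26. Timp2 in MGL KO replicate 3 was at 254.5 normalized CPM, with the next at 179.3. Eln in WT replicate 1 was at 324.9 normalized CPM, with the next WT library at 276.0.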

How the results depend on the processing

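No alternative of 20 called any of the 9 genes it tested (8 with at least 10 counts required in every library, which leaves out Mmp3). Of 179 fold changes recomputed, 171 kept their direction and side of the threshold and 8 changed sign, each when libraries were left out. With libraries left out, Mmp2 ranged from -0.38 (MGL KO replicate 3 left out) to 0.16 (MGL KO replicate 2 left out), Mmp14 from -0.17 (WT replicate 3) to 0.023 (WT replicate 1), and Mmp19 from -0.098 (MGL KO replicate 3) to 0.39 (both MGL KO replicates 2 and 4, a choice made after seeing the data). Over all genes, 7 were called as reported, 3 of them higher in MGL KO. With library size alone as scaling, 6 were called, 5 of them higher. The count was 2 without a filter, 2 with a robust fit, 64 by the exact test on filtered genes (42 of them higher in MGL KO), 42 by the exact test on all genes (30 higher), 137 by DESeq2 (79 higher), 25 by limma-voom (20 higher) and 2 to 5 with libraries left out. The activation and clearance list had 1 call, Thbs1, in both exact tests and DESeq2, and the matrix substrates 1 call, Eln, in the exact test on filtered genes, DESeq2 and limma-voom. With the replicate number as a block, 2 genes and none of the 9 were called, and Timp4 was at 1.27. Same-numbered libraries did not deviate together (correlations of -0.14, -0.28, -0.14 and 0.08), so the numbers pair nothing. The difference in the TIMP to metalloproteinase ratio was -0.50, against -0.86 without Mmp2, -0.92 without Mmp14 and -0.051 without Timp2, and between -0.57 and -0.37 with a library left out. Why these counts and differences moved was not tested. Depth limits Mmp3, Mmp9, Mmp13 and Timp1, for which the lowest library had 0 to 12 counts.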

Other observations

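For each tested gene, the other genes whose log2 CPM followed it most closely over the 8 libraries were ranked among 14855 genes, as a description of likeness over libraries that share depth and tissue makeup. Whether such values exceed what the closest of so many genes would reach by chance was not tested. Timp2 was followed most closely by Adamtsl1 (r = 0.980) and Aebp1 (0.977), both genes for extracellular matrix proteins, and Mmp14 by Tesc (0.978) and Col18a1 (0.948), the gene of a basement membrane collagen. Timp4 was followed by Taf5l (0.966) and by Cd36 (0.962), a fatty acid receptor of fat and muscle, and Mmp2 by Garre1 (0.987) and Piezo1 (0.984). Timp3 was followed by Prrc2b (0.990) and Ston1 (0.984), and Mmp9 by Ifnar2 (0.973) and Gpr132 (0.963), both receptor genes. For Mmp3 the closest were Nup50 (0.988) and Gxylt1 (0.984), for Mmp19 Gm35315 (0.977) and Apba1 (0.967), and for Timp1 Nckap5l (0.983) and Zfp935 (0.958).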
